A study of Mus musculus with 24 samples.

Results

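The histone H1, H2A, H2B and variant genes were the 44 genes, of 16593 gene symbols on the array, whose symbols name a linker histone (H1), a core histone H2A or H2B, or a variant histone (H2aj, H2ax, H2az1, macroH2A and the H3.3 genes). Each gene was represented by its probe with the highest mean over 24 arrays. By class they were 9 H1 genes, 15 H2A genes, 14 H2B genes and 6 variant genes. The arrays came from bone marrow macrophages of female C57BL/6 mice aged 6 weeks, with no genetic change named in the labels. Cells treated with a bromodomain inhibitor, and control cells, were each sampled 0, 1, 2 and 4 h after LPS (lipopolysaccharide, a bacterial cell wall component that activates macrophages), with 3 biological replicates in each of the 8 groups. The labels name neither the inhibitor nor its dose, nor the LPS dose, any time of pre-treatment or what control cells received. Values are log2 intensities, 1 unit being a doubling of the signal, and a change is the difference of 2 group means with its standard error (SE, 3 arrays against 3). Tests are limma's over 8203 genes or unnamed probes, with Benjamini-Hochberg adjusted p, and a call is an adjusted p under 0.05.

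Core histones H2A, H2B, H3 and H4 form the spool on which DNA is wound, and H1 binds the linker DNA between spools. Most of these genes lie in clusters, are transcribed in S phase together with DNA replication, and give mRNAs that end in a conserved stem-loop in place of a poly(A) tail. Replacement variants such as H3.3, H2A.Z, H2A.X and macroH2A are made outside S phase too, from genes that give polyadenylated mRNA. Bromodomains of the BET family bind acetylated lysines on histone tails and help recruit the transcription elongation machinery. The labelling kit used here primes from poly(A), so the arrays read whatever part of each histone mRNA carries a tail. The part of tail addition in the results was not tested. Genes of one class are near copies of each other, and a probe may also bind other copies, so values of single members are uncertain. In RNA from whole cultures, fewer cells of a type and less RNA per cell cannot be told apart.

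All 8 macrophage markers on the array that were looked up (such as Adgre1, Mertk and Cd14) lay above the floor on all 24 arrays. The floor, 6.45 log2 units, was the 99th percentile of receptor probes for smell and pheromones. Of the 7 markers of T and NK cells, none did so on any array. Markers of other cells that did so on all 24 arrays were S100a8, Csf3r, Bst2, Cpa3 and Fcer1a. Of the 44 histone genes, 30 passed the floor on every array of at least 1 group: 1 of 9 H1 genes, 13 of 15 H2A, 10 of 14 H2B and 6 of 6 variants. The other 14 (H1f1, H1f3, H1f4, H1f5, H1f6, H1f7, H1f8, H1f10, H2ac1, H2ac4, H2bc1, H2bc3, H2bu1-ps and H2bu2) did not and have no value below. Of the 30, H2ac6 passed only through the inhibitor groups, H2aw only through the inhibitor groups at 0 and 4 h, and H2aj only through the groups at 0 h, so that their differences are partly set by the filter.

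The promoters of members that the results turn on are shown because their letters differ between the classes and among the H2B genes. RefSeq's table for GRCm38.p6 held a promoter (250 bases before to 50 after the start) for 41 of the 44 genes, and for 28 of the 30 above the floor. Each line gives the 150 bases before the annotated start, 5′ to 3′ on the gene's strand. Capitals mark matches, on either strand, to TATAAA (the TATA box), CCAAT, ATTTGCAT (the octamer known from H2B promoters) or AAACACA (an element known from H1 promoters). The matches in these stretches do not overlap. The stretches lie at chr13:23738657-23738806 (H1f2, plus strand), chr13:23571250-23571399 (H2bc8, plus), chr13:22035671-22035820 (H2bc12, plus), chr13:21721894-21722043 (H2bc14, plus), chr3:96269550-96269699 (H2bc18, plus), chr13:23574208-23574357 (H2bc7, minus), chr13:22043048-22043197 (H2bc11, plus) and chr11:116024505-116024654 (H3f3b, minus).
H1f2: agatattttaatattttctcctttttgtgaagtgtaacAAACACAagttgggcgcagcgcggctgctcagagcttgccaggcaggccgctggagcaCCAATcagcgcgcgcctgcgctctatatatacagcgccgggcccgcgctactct
H2bc8: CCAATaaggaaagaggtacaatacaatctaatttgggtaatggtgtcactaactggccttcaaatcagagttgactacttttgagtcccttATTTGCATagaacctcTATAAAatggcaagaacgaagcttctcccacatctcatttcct
H2bc12: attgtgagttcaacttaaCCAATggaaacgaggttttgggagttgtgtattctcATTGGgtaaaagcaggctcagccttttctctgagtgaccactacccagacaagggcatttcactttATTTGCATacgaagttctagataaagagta
H2bc14: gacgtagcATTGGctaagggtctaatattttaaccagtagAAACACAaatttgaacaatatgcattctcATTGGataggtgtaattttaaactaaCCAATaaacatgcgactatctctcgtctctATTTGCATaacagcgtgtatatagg
H2bc18: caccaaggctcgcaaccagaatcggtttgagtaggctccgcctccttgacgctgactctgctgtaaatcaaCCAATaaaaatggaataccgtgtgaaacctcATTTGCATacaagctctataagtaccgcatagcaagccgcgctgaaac
H2bc7: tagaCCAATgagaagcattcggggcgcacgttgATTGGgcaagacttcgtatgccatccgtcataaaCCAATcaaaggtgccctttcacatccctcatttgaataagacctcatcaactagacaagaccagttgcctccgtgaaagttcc
H2bc11: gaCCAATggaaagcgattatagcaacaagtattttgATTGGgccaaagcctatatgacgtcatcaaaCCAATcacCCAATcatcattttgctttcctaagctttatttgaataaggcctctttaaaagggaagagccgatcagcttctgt
H3f3b: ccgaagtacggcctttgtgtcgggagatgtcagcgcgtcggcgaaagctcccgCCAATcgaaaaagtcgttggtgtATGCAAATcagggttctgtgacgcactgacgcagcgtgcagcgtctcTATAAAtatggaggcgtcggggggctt

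The octamer letters ATTTGCAT stood in 1.74% of all 32851 promoters of the table. They stood in 5 of 9 H2B genes above the floor with a promoter (H2bc6, at 1 of its 2 annotated starts, H2bc8, H2bc12, H2bc14 and H2bc18). They also stood in 5 of 13 such H2A genes (H2ac6, H2ac8, H2ac12, H2ac20 and H2aw) and in H3f3b. In these 5 H2A genes the match was on the strand opposite to the gene. For H2ac8 and H2ac12 it was the same site as that of H2bc8 and H2bc12, their neighbours that start in the opposite direction. AAACACA stood in 7.18% of all promoters and in 5 of 9 H1 genes, H1f2 among them. CCAAT stood in 37.4% of all promoters and in 27 of the 28 histone promoters, and TATAAA in 13.6% and in 14 of 28. H2bc7, H2bc9 and H2bc11, which lack the exact octamer, each hold it with the substitution C6A (counted from 1 at the octamer's 5′ end), as does the other start of H2bc6. This altered octamer was found in the 150 bases before the start in 0.621% of all promoters, and was looked for after the sequences had been seen.

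The inhibitor raised histone genes at every time and lowered none of the 30 at an adjusted p under 0.05. Before LPS, 3 of 30 were called higher (H2ac6, H2aw and H2bc8), against 0.158% of all genes tested. At 1 h it was 9 of 30 against 0.524%, at 2 h 13 of 30 against 2.72%, and at 4 h 16 of 30 against 12.6%. At these times 0%, 0.78%, 4.22% and 10.2% of all genes were called lower. Leaving out the 3 genes that the filter favoured, the counts were 1, 9, 12 and 14 of 27. The median change over the 30 was 0.58, 0.26, 0.26 and 0.49 at 0, 1, 2 and 4 h, against medians of all genes between -0.00 and 0.04. The 3 inhibitor arrays all lay above the 3 control arrays for 15, 15, 15 and 17 of the 30, against 2.83%, 5.24%, 12.4% and 19.9% of all genes.

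Same-numbered arrays varied together across the groups, and a fit with the replicate number as a block called 9 genes higher at 0 h, against 0.28% of all genes in that fit. These were the 3 already called and H2ac8, H2bc7, H2bc9, H2bc12, H2bc14 and H2bc15, with blocked adjusted p between 0.00941 and 0.0481. The calls before LPS and at 1 h also depended on single arrays. Without all arrays of replicate 3, 0 genes were called at 0 h. At 1 h the count of 9 fell to 1 without control replicate 1, to 2 without inhibitor replicate 2, to 5 without control replicate 3 and to 3 without inhibitor replicate 3. It was 0 at 1 h without all arrays of replicate 2, or of replicate 3. At 2 h the count was 8 without all arrays of replicate 2 and 7 without those of replicate 3, and at 4 h it stayed between 14 and 17.

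**Figure D1:**
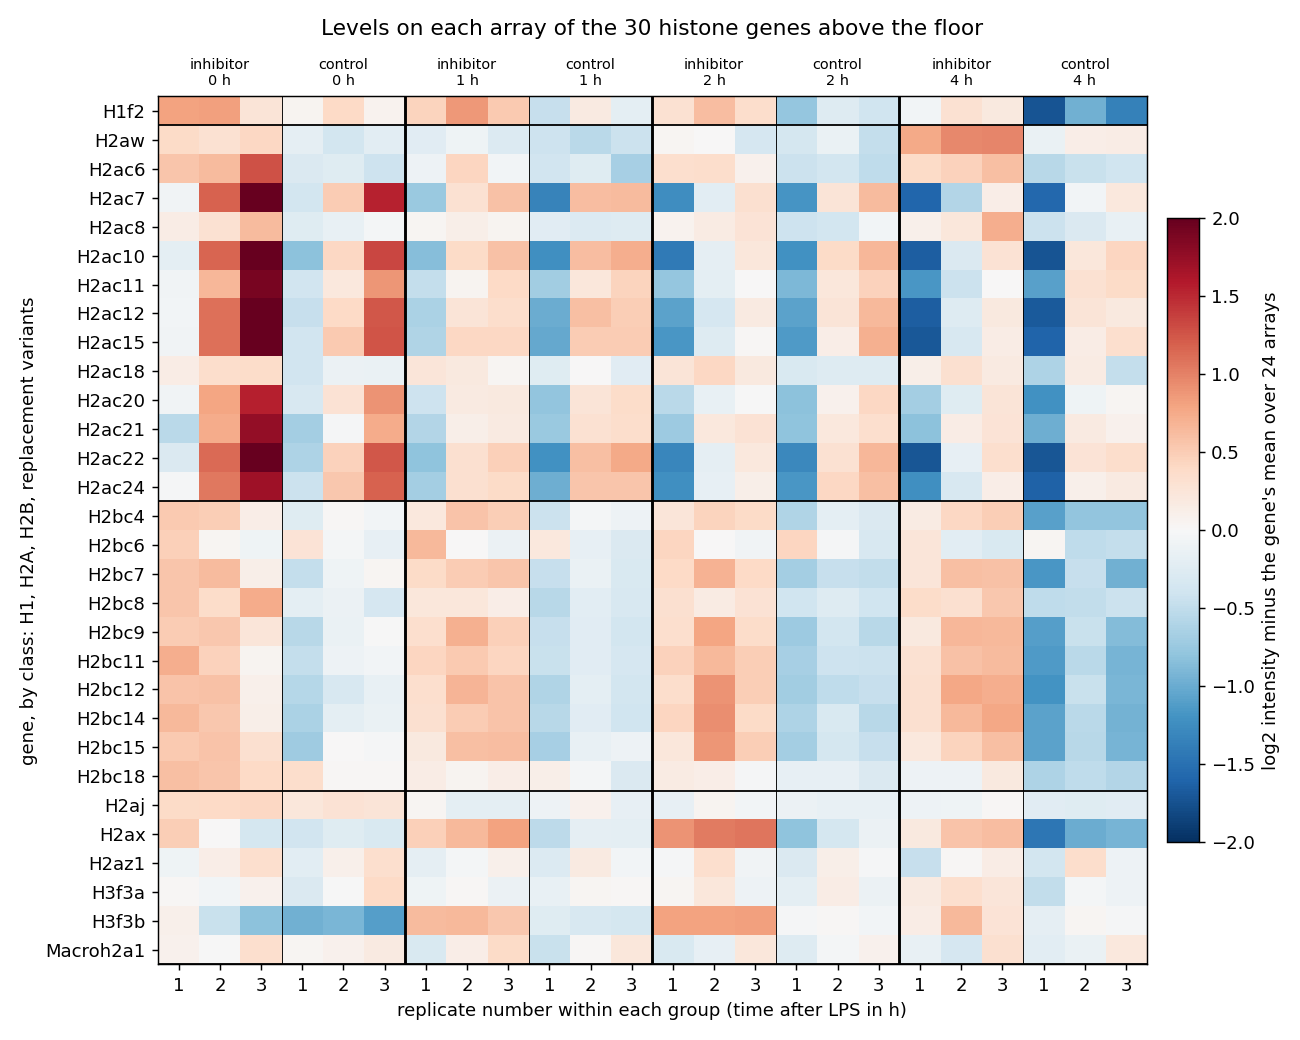
Log2 intensity on each of 24 arrays of the 30 histone genes above the floor, as the difference from the gene's mean over all arrays; columns are groups by time after LPS with the 3 replicates of each, and rows are genes by class. The H2B genes, H1f2 and H2ax have higher means in inhibitor-treated than in control cells at each time, with 1, 7, 8 and 9 of 10 H2B genes called at 0, 1, 2 and 4 h, while 9 H2A genes differ more between replicate numbers than between treatments.

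**Figure D2:**
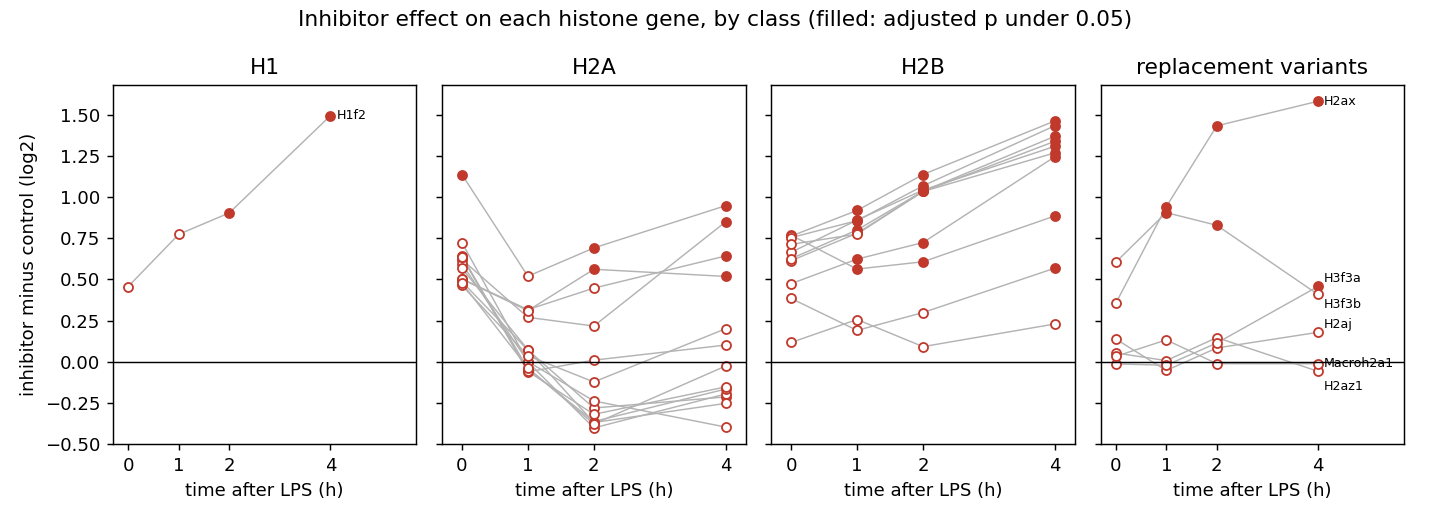
Inhibitor minus control (log2, y axis) for each gene against time after LPS (h), in a panel for each class; each point is 1 gene, lines join its 4 times, and filled points have an adjusted p under 0.05. The median H2B change was largest at 4 h (1.29), whereas the H2A genes spread from -0.40 to 0.95 at that time.

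H1f2, the linker histone H1.2 gene, was the one H1 gene above the floor. At 4 h it read 13.62, 13.99 and 13.87 in inhibitor-treated cells, against 11.95, 12.72 and 12.32 in control cells. All 3 inhibitor arrays were higher than all 3 control arrays. The change was 1.49 ± 0.20 (2.82-fold, adjusted p 2.15e-05). At 0 h it read 14.48, 14.51 and 13.93 with the inhibitor and 13.73, 14.07 and 13.74 without, so that the groups overlapped and the change of 0.46 ± 0.20 was not called. The change was 0.77 ± 0.20 at 1 h, called only with the replicate block (adjusted p 0.000865), and 0.90 ± 0.20 at 2 h (adjusted p 0.00787). The call at 2 h was lost without control replicate 1 (adjusted p 0.0595). Levels above 14 are near the top of the scale, where changes can be compressed.

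The H2B genes made up most of the calls at 1, 2 and 4 h. Of the 10 above the floor, 1, 7, 8 and 9 were called higher at 0, 1, 2 and 4 h, and all 10 changes were positive at every time. Their median change was 0.65, 0.78, 1.03 and 1.29. At 4 h the 9 called genes changed by 0.57 to 1.46, and H2bc6 by 0.23 ± 0.24 (adjusted p 0.554, or 0.0212 with the replicate block). H2B dimerises with H2A in the nucleosome core, and these genes encode near-identical proteins.

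H2bc12 had the largest H2B change at 4 h: 11.12, 11.58 and 11.53 in inhibitor-treated cells, against 9.61, 10.36 and 9.88 in control cells, a change of 1.46 ± 0.19 (2.76-fold, adjusted p 1.09e-05). H2bc14 read 11.22, 11.55 and 11.68 with the inhibitor and 9.83, 10.36 and 9.95 without (1.43 ± 0.18, adjusted p 9.23e-06). H2bc11 read 12.48, 12.77 and 12.81 with the inhibitor and 11.05, 11.64 and 11.26 without (1.37 ± 0.16, adjusted p 3.38e-06). For all 3 genes the lowest inhibitor array was above the highest control array, which was replicate 2 each time. H2bc7 read 12.62, 12.98 and 12.96 in inhibitor-treated cells and 11.21, 11.92 and 11.42 in control cells (1.34 ± 0.17, adjusted p 1.09e-05). H2bc9 read 11.96, 12.42 and 12.42 with the inhibitor and 10.66, 11.32 and 10.89 without (1.31 ± 0.18, adjusted p 2.26e-05). H2bc15 read 11.07, 11.32 and 11.46 with the inhibitor and 9.80, 10.31 and 9.93 without (1.27 ± 0.21, adjusted p 0.00013). In these 3 genes too the groups did not overlap, and replicate 1 was the lowest array of each group.

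H2bc4 read 13.33, 13.58 and 13.65 in inhibitor-treated cells and 12.08, 12.37 and 12.37 in control cells at 4 h (1.25 ± 0.14, adjusted p 2.77e-06). Its second probe changed by 1.37 at that time, also higher with the inhibitor. H2bc8 read 7.37, 7.31 and 7.55 with the inhibitor and 6.49, 6.51 and 6.56 without (0.89 ± 0.10, adjusted p 3.42e-06). It was the H2B gene called at all 4 times. At 0 h it read 7.55, 7.37 and 7.74 with the inhibitor and 6.81, 6.89 and 6.66 without (0.77 ± 0.10, adjusted p 0.000322). H2bc18, the one H2B gene above the floor on chromosome 3, changed by 0.57 ± 0.11 at 4 h (adjusted p 0.000933). That call was lost when arrays were centred on 12 housekeeping genes. The second probe of H2bc18, below the floor on every array, changed by 0.05 at 4 h. At 4 h the 5 H2B genes whose promoters hold the exact octamer (H2bc6, H2bc8, H2bc12, H2bc14 and H2bc18) changed by 0.23 to 1.46, and the 4 whose promoters lack it (H2bc7, H2bc9, H2bc11 and H2bc15) by 1.27 to 1.37. The difference between them was not tested.

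**Figure D3:**
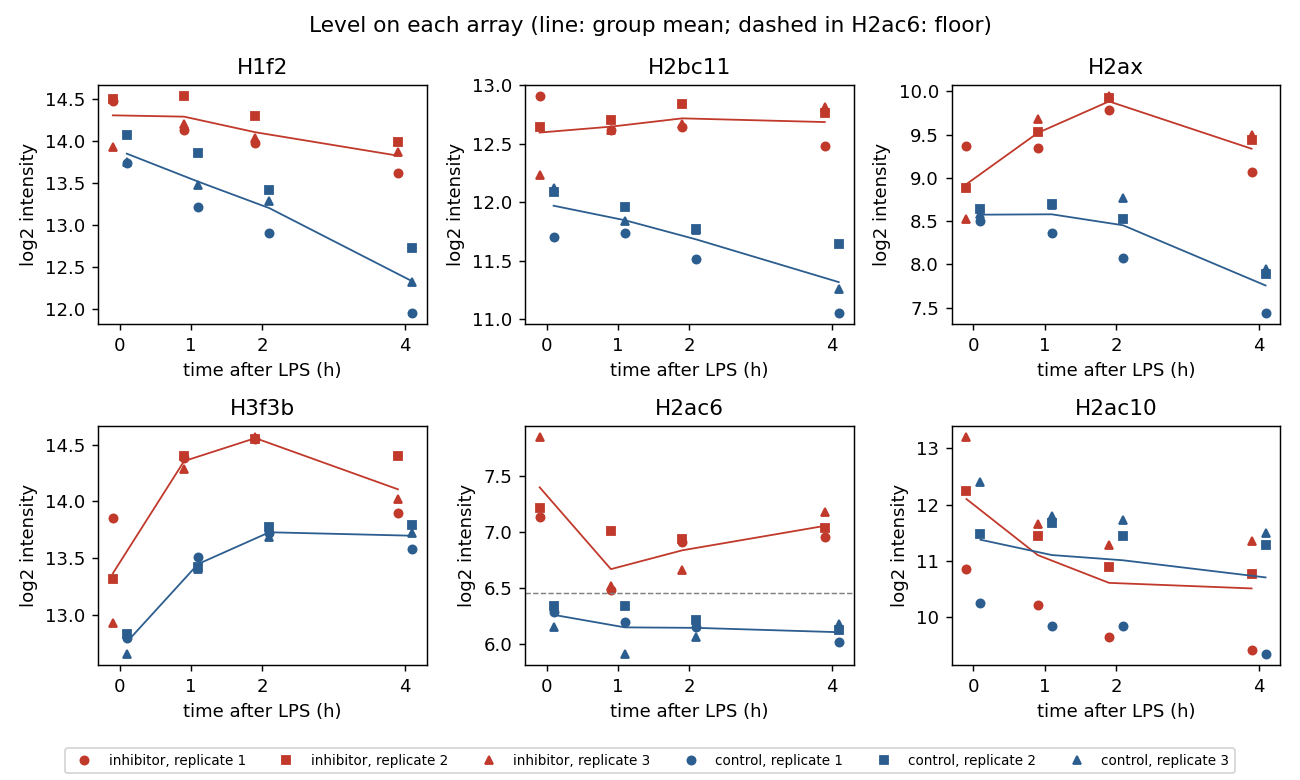
Log2 intensity on each array of 6 histone genes against time after LPS (h); colours mark inhibitor-treated and control cells, shapes the replicate number, lines the group means, and the dashed line in the H2ac6 panel the floor of 6.45. In control cells the means of H1f2 and H2ax are lower at 4 h than at 0 h, as is that of H2bc11 (but not with arrays centred on housekeeping genes), whereas in inhibitor-treated cells H2bc11 and H2ax stay at or above their 0 h mean, and H2ac10 differs most by replicate.

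Before LPS the change was positive for all 13 H2A genes above the floor, in each of the 3 same-numbered pairs of arrays. At 1, 2 and 4 h it was positive for 8, 5 and 6 of the 13. At 0, 1, 2 and 4 h 2, 0, 2 and 4 were called higher and none lower, against 0.158%, 0.524%, 2.72% and 12.6% of all genes called higher. These calls include H2ac6 (0, 2 and 4 h) and H2aw (0 and 4 h). Both genes passed the floor only through inhibitor groups, so their calls are partly set by the filter. Their median change was 0.59, 0.04, -0.24 and -0.03 at these times. The genes called at 4 h were H2ac6, H2ac8, H2ac18 and H2aw, with changes of 0.52 to 0.95. H2A forms most of the nucleosome's acidic patch, to which many chromatin proteins bind.

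H2ac6 read 7.13, 7.21 and 7.84 in inhibitor-treated cells at 0 h, against 6.28, 6.34 and 6.16 in control cells. All control arrays lay below the floor, at this and every other time, and all inhibitor arrays above it. H2ac6 was thus tested only because of its inhibitor arrays, and the same holds for H2aw. Against the floor, its level with the inhibitor was at least 1.92-fold higher before LPS, with an adjusted p of 0.000613. The bound was 1.30-fold at 2 h and 1.51-fold at 4 h, both higher with the inhibitor (adjusted p 0.0102 and 0.000227). For H2aw the bound before LPS was 1.17-fold higher, with an adjusted p of 0.015, a call lost without control replicate 2 (adjusted p 0.187) and in 3 more of the 6 fits that left out 1 array. At 4 h H2aw changed by 0.85 ± 0.11 (adjusted p 1.58e-05). H2ac8 changed by 0.64 ± 0.14 at 4 h (adjusted p 0.00244). Its changes of 0.50 before LPS and 0.45 at 2 h were called only with the replicate block (adjusted p 0.0297 and 0.00419). H2ac18 changed by 0.56 ± 0.14 at 2 h and 0.52 ± 0.14 at 4 h, and each call was lost in 3 of 6 fits that left out 1 array.

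The other 9 H2A genes (H2ac7, H2ac10, H2ac11, H2ac12, H2ac15, H2ac20, H2ac21, H2ac22 and H2ac24) differed so much between replicates that their inhibitor effect had an SE of 0.43 to 0.76. They were singled out after their values had been seen, by a range of at least 1 log2 unit over the 3 control arrays at 0 h. That range was reached by 9 of 13 H2A genes, 0 of 10 H2B genes, 0 of 14 H3 and H4 genes and 2.24% of all genes tested. H2ac10 read 10.86, 12.23 and 13.20 in inhibitor-treated cells of replicates 1, 2 and 3 at 0 h, against 10.24, 11.48 and 12.41 in control cells. Replicate 3 was the highest and replicate 1 the lowest under both treatments. At 4 h the same gene read 9.41, 10.77 and 11.35 with the inhibitor and 9.34, 11.29 and 11.49 without. The difference between same-numbered arrays was 0.62, 0.76 and 0.80 at 0 h and 0.08, -0.52 and -0.15 at 4 h.

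The mean of the 9 genes followed the same course. It was 10.31, 11.46 and 12.39 in inhibitor-treated cells of replicates 1 to 3 at 0 h, against 9.97, 10.83 and 11.61 in control cells. At 4 h it was 9.11, 10.19 and 10.66 with the inhibitor and 9.0, 10.61 and 10.71 without. The change of the 9 genes had a median of 0.59, -0.00, -0.32 and -0.17 at 0, 1, 2 and 4 h, and none was called at any time, with or without the block. The mean of the 10 H2B genes at 4 h was 10.57, 10.76 and 10.83 with the inhibitor and 9.45, 9.82 and 9.56 without, a far smaller spread between replicates. At 0 h the H2B mean was 10.91, 10.82 and 10.56 with the inhibitor and 10.02, 10.25 and 10.26 without, so the gap was widest in replicate 1 and narrowest in replicate 3.

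Genes of the cell cycle and DNA replication, during which histone genes are transcribed, moved with the replicate number as well. The mean of 23 such genes above the floor was 8.29, 8.63 and 8.76 in inhibitor-treated cells of replicates 1 to 3 at 0 h, and 8.32, 8.67 and 8.80 in control cells. Replicate 1 was the lowest of the 3 arrays in all 8 groups. None of the 23 was called for the inhibitor at 0, 1 or 2 h. At 4 h 1 was called: Plk1, a mitotic kinase, was lower (-0.49 ± 0.16, adjusted p 0.0284). Of all genes 0.158%, 0.524%, 2.72% and 12.6% were called higher at 0, 1, 2 and 4 h. Those called lower were 0%, 0.78%, 4.22% and 10.2%. The part of the cell cycle in the replicate differences was not tested.

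**Figure D4:**
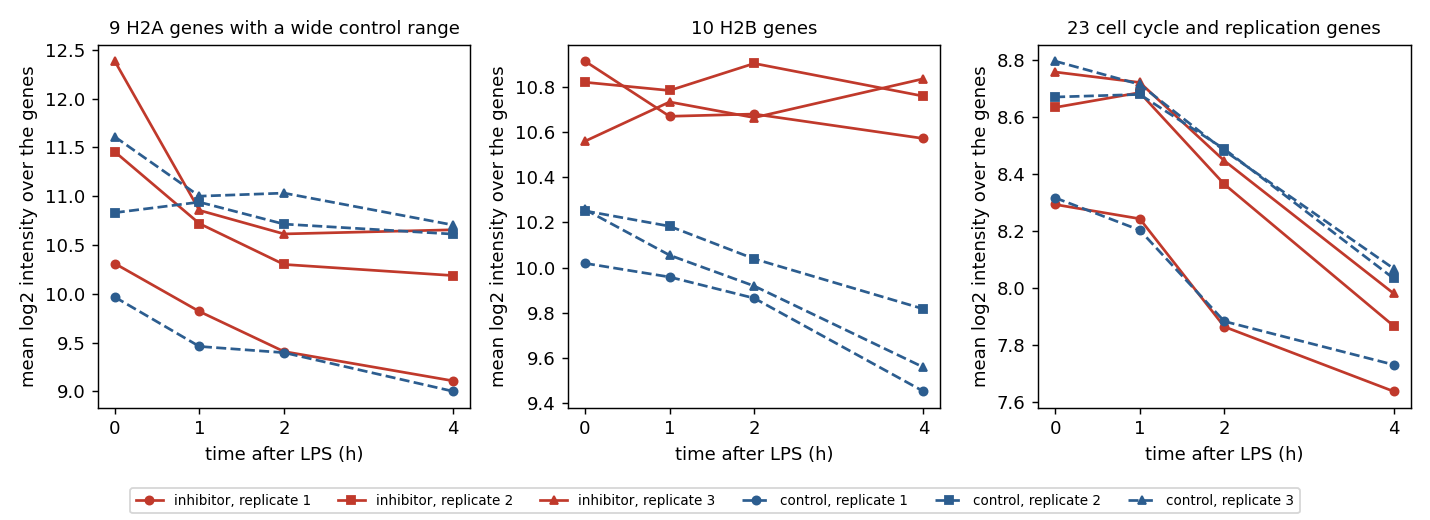
Mean log2 intensity over 9 H2A genes with a wide control range, 10 H2B genes and 23 cell cycle and replication genes on each array against time after LPS (h); colours and line styles mark inhibitor-treated and control cells, shapes the replicate number. The H2A and cell cycle means are lowest in replicate 1 under both treatments, while in the H2B panel the inhibitor lines lie above every control line.

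Many H2A and H2B genes sit head to head, starting in opposite directions from a shared stretch of DNA. In 5 such pairs both genes were above the floor, with 163 to 248 bases between the starts, all on chromosome 13. At 4 h H2bc15 changed by 1.27 and H2ac15 by -0.25, H2bc12 by 1.46 and H2ac12 by -0.17, H2bc11 by 1.37 and H2ac11 by -0.40, and H2bc7 by 1.34 and H2ac7 by -0.21. All 4 H2B genes of these pairs were called and none of the 4 H2A genes. In the fifth pair both were called, with 0.89 for H2bc8 and 0.64 for H2ac8. At 0 h the members of these 4 pairs lay closer, for example 0.63 for H2bc11 and 0.59 for H2ac11, but those of the H2bc8 pair did not (0.77 for H2bc8 and 0.50 for H2ac8). The difference within a pair was not tested, and the 4 uncalled H2A genes are among those with a wide range between replicates.

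**Figure D5:**
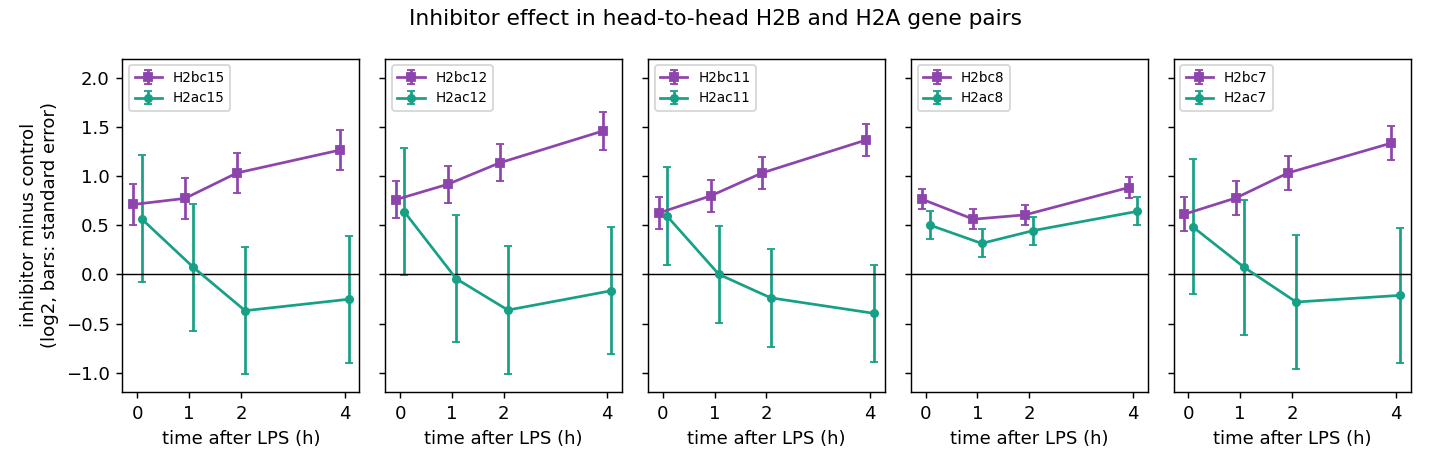
Inhibitor minus control (log2, with the standard error as bars) against time after LPS (h) for 5 head-to-head pairs of an H2B gene (squares) and an H2A gene (circles). In 4 pairs the H2B gene rises to 1.27 to 1.46 at 4 h while the H2A gene lies at or below -0.17, and in the H2bc8 pair both rise.

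Among the 6 variant genes, H2ax and H3f3b rose early with the inhibitor. H2ax encodes H2A.X, which is phosphorylated beside DNA breaks. At 2 h it read 9.78, 9.92 and 9.95 in inhibitor-treated cells, against 8.07, 8.52 and 8.77 in control cells (1.43 ± 0.19, 2.70-fold, adjusted p 6.06e-05). At 4 h it read 9.07, 9.44 and 9.50 with the inhibitor and 7.43, 7.88 and 7.94 without (1.58 ± 0.19, 2.99-fold, adjusted p 5.47e-06), the largest change of the 30 genes at that time. The groups did not overlap from 1 h on. At 1 h the change was 0.94 ± 0.19 (adjusted p 0.0112), and it was not called in 3 of 6 fits that left out 1 array (adjusted p 0.102 without control replicate 1). At 0 h it read 9.37, 8.89 and 8.53 with the inhibitor and 8.50, 8.64 and 8.58 without. Replicate 3 then ran the other way, and the change of 0.35 ± 0.19 was not called.

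H3f3b, 1 of the 2 genes for the replacement histone H3.3, read 14.38, 14.40 and 14.29 in inhibitor-treated cells at 1 h, against 13.51, 13.43 and 13.41 in control cells (0.91 ± 0.16, adjusted p 0.00241). At 2 h the arrays read 14.55, 14.55 and 14.57 with the inhibitor and 13.72, 13.77 and 13.69 without (0.83 ± 0.16, adjusted p 0.0017). The inhibitor arrays were tightly grouped and high at both times. At 0 h and 4 h the changes were 0.60 ± 0.16 (adjusted p 0.39) and 0.41 ± 0.16 (adjusted p 0.0664, or 0.033 with the block).

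H3f3a, the other H3.3 gene, read 11.73, 11.89 and 11.79 with the inhibitor at 4 h and 11.07, 11.51 and 11.46 without (0.46 ± 0.15, adjusted p 0.0276). This call was lost in 3 of 6 fits that left out 1 array (adjusted p 0.171 without control replicate 1), when arrays were centred on housekeeping genes or normalised by cyclic loess, and when all its probes were averaged. Its second probe changed by 0.06. In the unblocked fit on the deposited scale, neither H2az1 (the H2A.Z gene) nor Macroh2a1 (large-domain variant macroH2A1) was called in any comparison. With arrays centred on housekeeping genes both were called higher for LPS at 4 h in control cells (0.56 and 0.52). With the inhibitor at 4 h H2az1 changed by -0.06 (95% interval -0.46 to 0.35) and Macroh2a1 by -0.01 (-0.43 to 0.41). H2aj was not called for the inhibitor at any time.

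LPS itself changed few members at 1 h in control cells, where 1 of 30 was called higher (2.15% of all genes) and 1 lower (1.06%). At 2 h it was 1 higher (10% of all genes) and 3 lower (15.2%), and at 4 h 2 higher (19.8%) and 12 lower (32.7%). At 4 h the share of members called lower was near that of all genes. Without the 3 genes that the filter favoured, 1, 1 and 1 of 27 were called higher and 0, 2 and 11 lower. H3f3b rose at each time, by 0.69, 0.97 and 0.94 at 1, 2 and 4 h. In control cells its arrays read 13.58, 13.79 and 13.72 at 4 h, against 12.80, 12.83 and 12.65 at 0 h, with no overlap. H1f2 fell by 1.52 at 4 h (SE 0.20, adjusted p 3.58e-06), with all 3 arrays at 4 h below the 3 at 0 h. H2ax fell by 0.82 (SE 0.19, adjusted p 0.00137), and 9 of 10 H2B genes fell by 0.26 to 0.79, H2bc4 the most, although 7 of the 10 H2B changes were positive when arrays were centred on housekeeping genes. The second probe of H2bc4 changed by -0.34 (adjusted p 0.272).

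H2aj, a variant H2A gene outside the clusters, read 6.15, 6.13 and 6.16 in control cells at 4 h, against 6.60, 6.67 and 6.64 at 0 h. All arrays at 4 h lay below the floor and all at 0 h above it. Against the floor, its level at 4 h was at least 1.14-fold lower on the deposited scale. The difference of the group means had an adjusted p of 6.02e-05. H2aj was tested only because of its arrays at 0 h, so this fall is partly set by the filter. With arrays centred on housekeeping genes its change was 0.18 (adjusted p 0.237). With the replicate block the lower counts were 2, 11 and 20 of 30 at 1, 2 and 4 h, against 2.96%, 25% and 40.5% of all genes. The count of 3 at 2 h was 1 without control replicate 1 at 2 h, and the count of 12 at 4 h was 7 without control replicate 1 at 4 h. These falls also rest on the scaling of the arrays: centring on housekeeping genes moved the median change of all genes up by 0.67 at 4 h, and 9 members were then called higher and 1 lower. With that centring 66.8% of all genes were called at 4 h, 93.2% of these calls being higher. In that setting H1f2 was still called lower (-0.85, adjusted p 0.000234), while H2ax was not (-0.15, adjusted p 0.387). Over the same time 13 of 23 cell cycle genes were called lower on the deposited scale, against 32.7% of all genes.

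In inhibitor-treated cells, of the 30 members, 1, 2 and 2 were called higher at 1, 2 and 4 h (1.73%, 7.4% and 19.7% of all genes) and 3, 4 and 6 lower (1.48%, 10.5% and 26.7%). Without the 3 genes that the filter favoured, 1, 2 and 1 of 27 were called higher and 0, 1 and 5 lower. The median H2B change at 4 h was 0.01, against -0.59 in control cells, on the deposited scale. With arrays centred on housekeeping genes it was 0.40 against 0.08, and 6 H2B genes were called higher in inhibitor-treated cells. With that centring 50.2% of all genes were called in inhibitor-treated cells at 4 h, 86.5% of these calls being higher. On the deposited scale 1 H2B gene, H2bc18, was called lower (-0.52 ± 0.11, adjusted p 0.000779). Its second probe, below the floor on every array, changed by 0.13. The second probe of H2bc4 rose by 0.69 (adjusted p 0.0337), whereas the probe used for the gene changed by -0.02. H2ax rose at 2 h by 0.96 ± 0.19 (adjusted p 0.00124), reading 9.78, 9.92 and 9.95 against 9.37, 8.89 and 8.53 at 0 h. H3f3b rose by 0.99, 1.19 and 0.74 at 1, 2 and 4 h. H1f2 changed by -0.48 ± 0.20 at 4 h, called lower only with the block (adjusted p 0.00281).

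In inhibitor-treated cells the H2A genes with a wide range were lower after LPS than before it. At 4 h the 9 changes lay between -1.73 and -0.79, and 4 were called lower (H2ac7, H2ac11, H2ac12 and H2ac15). With the replicate block all 9 were called lower at 1, 2 and 4 h, and the counts of members called lower were 14, 14 and 13 of 30, against 4.06%, 17.9% and 34.6% of all genes. H2ac10 had blocked adjusted p of 0.000347, 5.38e-07 and 5.43e-08 at the 3 times. The unblocked counts moved with single arrays: 6 at 4 h became 12 without inhibitor replicate 1 at 0 h, and 2 without inhibitor replicate 1 or 2 at 4 h or replicate 2 at 0 h, and 3 without replicate 3 at 0 h. The count of 4 at 2 h became 7 without inhibitor replicate 1 at 0 h and 1 without replicate 3 at 2 h. When arrays were centred on housekeeping genes, none of the 30 was called lower at 4 h and 11 were called higher. In that setting the median of all genes moved up by 0.39. Of all genes 50.2% were then called at 4 h, 86.5% of these calls being higher.

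Whether the inhibitor effect differed from that at 0 h was tested directly. At 1 h none of the 30 differed (0.0244% of all genes higher, 0% lower), and at 2 h none did (0.232% and 0.646%). At 4 h 4 of 30 had a larger effect (4.17% of all genes) and none a smaller one (3.85%). These were H2ax (1.23 ± 0.27, adjusted p 0.00769), H1f2 (1.04 ± 0.29, adjusted p 0.0301), H2bc4 (0.77 ± 0.20, adjusted p 0.0223) and H2bc11 (0.74 ± 0.23, adjusted p 0.0484). H2ax stayed called in all 12 fits that left out 1 array, and the other 3 did not. The count was 1 or 2 without any of 6 single arrays: control replicate 1 or 3 or inhibitor replicate 2 or 3 at 4 h, control replicate 2 at 0 h, or inhibitor replicate 3 at 0 h. It was 9 without all arrays of replicate 1, and 0 without all of replicate 2 or of replicate 3.

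With the replicate block 9 members had a larger effect at 4 h than at 0 h (9.48% of all genes), adding H2bc7, H2bc9, H2bc12, H2bc14 and H2bc15. In the same fit 5 H2A genes had a smaller effect (7.88% of all genes): H2ac7 (-0.70), H2ac10 (-0.92), H2ac11 (-0.99), H2ac15 (-0.82) and H2ac22 (-0.79), with adjusted p of 0.00704 to 0.0427. At 2 h the blocked fit called H2ax larger (1.08, adjusted p 0.0169) and H2ac10, H2ac15, H2ac22 and H2ac24 smaller, against 1.02% and 1.97% of all genes.

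The H3 and H4 genes rose with the inhibitor as well, and by more. Of 14 above the floor (20 on the array), 10, 10, 12 and 14 were called higher at 0, 1, 2 and 4 h and none lower. Of all genes 0.158%, 0.524%, 2.72% and 12.6% were called higher at these times. All control arrays of H3c7 at 0, 2 and 4 h, of H3c1 at 2 and 4 h, and of H4c3 at 4 h, lay below the floor. Differences of these genes, and so the counts and medians, may be partly set by the filter. Their median change was 1.32, 1.07, 1.17 and 1.51, against 0.65, 0.78, 1.03 and 1.29 for the H2B genes. At 0 h all 10 called H3 and H4 genes changed by over 1 log2 unit, among them H3c1 (1.67 ± 0.16) and H4c9 (1.58 ± 0.16). The differences between these sets were not tested.

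Genes whose products process histone mRNA or control histone genes were also looked up. Of 14 above the floor (22 on the array) none was called for the inhibitor at 0, 1 or 2 h. At these times 0.158%, 0.524% and 2.72% of all genes were called higher, and 0%, 0.78% and 4.22% lower. The shares of all genes at 4 h were 12.6% higher and 10.2% lower. At 4 h the polyadenylation factor Cstf2 (0.37 ± 0.12) and the cap-binding protein gene Ncbp1 (0.44 ± 0.09) were higher, and Hinfp, a transcription factor of H4 genes, was lower (-0.36 ± 0.09). Of 13 histone chaperone and exchange genes above the floor (18 on the array), Daxx, the chaperone of H3.3, was lower at 2 h (-1.34 ± 0.31, adjusted p 0.0101). The inhibitor and control arrays of Daxx overlapped at that time. At 4 h Nasp, a chaperone of H3, H4 and H1, was higher (0.52 ± 0.15), as was Nap1l4, of the nucleosome assembly protein family (0.30 ± 0.10).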

How the data were processed

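The table analysed was the one the authors deposited as processed, with 25697 probes on 24 arrays. They run from 5.354 to 15.172 and were read as log2 intensities that the authors had quantile normalized, because ranked values of the arrays differed by at most 0.004 at 99% of ranks; no label states scale or background correction. The submitters' processing notes name limma, with no version. A non-normalized table with 72 value columns was not used, since no label pairs its array positions with samples. Probe names come from the platform annotation, with symbols checked against RefSeq.

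The floor of 6.45 is the 99th percentile of 1305 receptor probes. Probes above it on all 3 arrays of at least 1 group were kept, and each gene's kept probe with the highest mean entered a limma fit (version 3.58.1, R 4.3.3, lmFit and eBayes, 8 group means, 16 residual degrees of freedom, two-sided). Folds given as a bound ("at least") are set against the floor where every array of a group lay below it. An adjusted p printed beside a bound belongs to the difference of the group means, not to the bound. The fit was tested on simulated data. The number of arrays limits the precision.

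Deviations of same-numbered arrays from their group means correlated in every comparison (r of 0.106 to 0.847), so the numbers were taken to pair the samples. The sample titles give the numbers without stating a pairing. For LPS at 4 h, replicate 3 correlated slightly more with an array of another number. The r values were 0.266 against 0.252 in control cells and 0.286 against 0.259 in inhibitor-treated cells. The fit with the replicate number as a block is given where it changes a call. Alternatives were no filter, a filter on the mean, centring on 12 housekeeping genes, cyclic loess, subtraction of a background, the mean of a gene's probes, and leaving out arrays; leaving out all 8 arrays of a replicate number was added after seeing the data.

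Members and lists were chosen with earlier results of these data known. Array values are given for up to 12 members called for the inhibitor without overlap, by size of change, and for variant genes called in any comparison, beside genes named after their values were seen (H2ac10). Genes of other lists are named where called for the inhibitor, apart from most H3 and H4 genes. Of the housekeeping genes, Hprt was called higher with the inhibitor at 4 h (0.34 ± 0.11, adjusted p 0.0312). The mean of the 13 housekeeping genes on the array was 11.57 in control cells at 0 h. At 4 h it was 11.27 in control cells and 11.40 in inhibitor-treated cells, so the list used for centring differed between groups as well.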

Additional observations from a re-analysis of the deposited data

Results flagged for a closer look

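Whether the inhibitor effect at 4 h after LPS was larger than that at 0 h was tested by the difference itself. The effect was larger for 4 of the 30 histone genes above the floor, against 4.17% of all genes. The difference in log2 change was 1.23 for H2ax (adjusted p 0.00769), 1.04 for H1f2 (adjusted p 0.0301), 0.77 for H2bc4 (adjusted p 0.0223) and 0.74 for H2bc11 (adjusted p 0.0484). Over the 12 fits that left out 1 array of these groups, the value ran from 1.03 to 1.45 for H2ax, from 0.85 to 1.23 for H1f2, from 0.65 to 0.87 for H2bc4 and from 0.56 to 0.90 for H2bc11. The call was lost in 0, 6, 5 and 8 of these fits. Without all arrays of replicate 1, 2 or 3, the count of 4 became 9, 0 and 0.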

How the results depend on the processing

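Counts of members called for the inhibitor stayed within 1.5 times of the reported ones under the alternatives other than the replicate block and left-out arrays: 2 to 3 at 0 h, 8 to 10 at 1 h, 11 to 14 at 2 h and 13 to 16 at 4 h, with 0 called lower. With the replicate block, which takes same-numbered arrays as paired, 9 were called higher at 0 h. It added calls given with the results and removed none. For LPS in control cells the block gave 2, 11 and 20 lower at 1, 2 and 4 h. For LPS in inhibitor-treated cells it gave 14, 14 and 13 lower, and 2 higher at 1 h. For the change of the inhibitor effect it gave 1 higher and 4 lower at 2 h, and 9 higher and 5 lower at 4 h.

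Centring on housekeeping genes left, for LPS in control cells, 0 lower at 1 h and at 2 h, and 9 higher and 1 lower at 4 h. At 4 h 66.8% of all genes were then called, 93.2% of these calls being higher. In inhibitor-treated cells centring left 0 lower at 2 h, and 11 higher and 0 lower at 4 h. Here 50.2% of all genes were called at 4 h, 86.5% of these calls being higher. Centring left 1 gene with a larger inhibitor effect at 4 h. Cyclic loess left 1 lower at 2 h and 5 lower at 4 h in control cells, and 4 higher and 3 lower at 4 h in inhibitor-treated cells. A filter on the mean, which fits fewer genes, left 0 lower at 1 h and 1 higher at 4 h in control cells. In inhibitor-treated cells it left 1 lower at 1 h, 2 lower at 2 h and 1 higher at 4 h. With no filter, 2 were lower at 4 h in inhibitor-treated cells and 2 had a larger inhibitor effect. With a background subtracted, 1 had a smaller effect at 1 h and 1 at 2 h. The cause of the other shifts was not tested.

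Leaving out single arrays, or all arrays of 1 replicate number, gave 0 to 4, 0 to 10, 7 to 13 and 14 to 17 calls for the inhibitor at 0, 1, 2 and 4 h. For LPS in control cells it gave 0 to 1 higher and 0 to 1 lower at 1 h, 1 higher and 0 to 3 lower at 2 h, and 1 to 2 higher and 5 to 15 lower at 4 h. In inhibitor-treated cells it gave 0 to 2 higher and 0 to 10 lower at 1 h, 1 to 2 higher and 0 to 13 lower at 2 h, and 1 to 4 higher and 1 to 12 lower at 4 h. A larger inhibitor effect was called for 0 to 1 genes at 2 h and 0 to 9 at 4 h.

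Centred on housekeeping genes, the LPS change at 4 h in control cells turned positive for 16 of the 30 members, of which 13 were called in at least 1 of both fits: 0.57 for H2ac18, 0.51 for H2ac6, 0.52 for H2ac8, 0.0148 for H2bc11, 0.16 for H2bc12, 0.14 for H2bc14, 0.0615 for H2bc15, 0.41 for H2bc8, 0.10 for H2bc9, 0.18 for H2aj, 0.56 for H2az1, 0.43 for H3f3a and 0.52 for Macroh2a1. In inhibitor-treated cells it did so for 9 members, of which H2ac8 (0.39) and H2bc4 (0.37) were called in at least 1 of both fits. Dim genes near the floor have understated changes, and with 3 arrays a group the wide-ranging H2A genes allow no firm statement without the block.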

Other observations

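By chromosome, at 4 h the 9 H2B genes above the floor on chromosome 13 had a median inhibitor effect of 1.31, and 8 were called higher. The one on chromosome 3, H2bc18, changed by 0.57. Of the H2A genes, 2 of 9 on chromosome 13 (H2ac6 and H2ac8), 1 of 3 on chromosome 3 (H2ac18) and the one on chromosome 11 (H2aw) were called higher. Of all genes 12.6% were called higher at 4 h. H2ac6 and H2aw passed the floor only through inhibitor groups, and the uncalled H2A genes are those with a wide range between replicates. The difference between chromosomes was not tested.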
